A study of Mus musculus with 18 samples.

Results

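The mRNA levels of 10 genes that carry sulfur and methyl groups through the liver were examined in the livers of 18 mice. The genes were Csad, Cdo1 and Slc6a6 of taurine synthesis and uptake, Mat1a, Bhmt, Gnmt and Ahcy of the methionine cycle, Cbs and Cth of transsulfuration, and Pemt of phosphatidylcholine synthesis. They were chosen by pathway with the measured fold changes of these livers already known, so their values are given as a description and carry no p-value. All 10 were found by symbol among the 55487 genes of the count table, and all 10 passed the filter on low counts in each comparison. The mice were male C57BL/6J, were bought at 7 weeks of age, and were injected with an adeno-associated virus (AAV) 1 week before 16 weeks of diet. In each vector the transgene sits behind the TBG promoter, which directs expression to hepatocytes. The CON-GFP group (n = 6) had the GFP vector and a purified control diet. The FPC-GFP group (n = 6) had the same vector and the FPC diet, a high-fat diet with added fructose, palmitate and cholesterol, given together with fructose-glucose water. The FPC-LIPA group (n = 6) had the FPC diet and a vector with human LIPA, the gene of lysosomal acid lipase, the enzyme that splits cholesterol esters and triglycerides inside lysosomes. All 3 groups thus carried a vector, and livers were taken after a 4 h fast.

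Methionine is activated to S-adenosylmethionine, the methyl donor of most methyltransferases, and the spent donor is hydrolyzed to homocysteine. Homocysteine is either methylated back to methionine, in liver largely with betaine made from choline, or passed through cystathionine to cysteine. Cysteine is used for glutathione or is oxidized and decarboxylated on the way to taurine, with which mouse liver conjugates most of its bile acids. Liver is the main site of methionine breakdown and of phosphatidylcholine synthesis by methylation, so these pathways compete there for the same sulfur and methyl groups.

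Total counts per library lay between 16632146 and 37739301, with a median of 28802835.5. Levels are given as counts scaled to a common library size (CPM) by TMM, a method that sets library scale from the bulk of genes, and levels of different genes are compared only as CPM per kb of exon. Hepatocyte genes dominated all libraries. The summed level of the 8 hepatocyte markers found in the table (Alb, Apoa1, Apob, Ttr, Fgb, Ahsg, Serpina1c and Hnf4a) was 78560 to 108200 CPM in CON-GFP, 65080 to 91490 in FPC-GFP and 52950 to 79950 in FPC-LIPA. The cytosolic ribosomal protein genes took 1.44% to 2.54% of counts in the CON-GFP and FPC-GFP libraries, against 2.16% to 2.95% in FPC-LIPA 31, 33 and 34 and 6.48% to 8.15% in FPC-LIPA 36, 37 and 39. The latter 3 libraries stand apart from all others. Log2 fold changes of the 10 genes between the FPC groups are given with and without these 3 libraries. Ratios between genes are given with all libraries only. The mouse Lipa gene lay at 208 to 309 CPM in CON-GFP, 235 to 406 in FPC-GFP and 243 to 391 in FPC-LIPA. The vector carries the human gene, so these counts do not check the vector labels.

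With the FPC diet, the 10 genes split into 1 that was far higher, 7 that were lower and 2, Slc6a6 and Cbs, that did not pass the test (FPC-GFP against CON-GFP). Csad, the last enzymatic step before hypotaurine, was 9.76 times the control level, while Bhmt and Gnmt, which supply and consume methyl groups, were 5.38 and 3.18 times lower, and Cth of transsulfuration was 2.24 times lower. These 4 genes passed the thresholds of the study for differential expression (DE), at least a 2-fold change and an adjusted p under 0.05 by edgeR's quasi-likelihood test, which 7.2% of the 14307 genes tested passed (4.76% higher and 2.44% lower). With the adjusted p alone, 8 of the 10 passed, namely Csad, Cdo1, Mat1a, Bhmt, Gnmt, Cth, Ahcy and Pemt, where 23.8% of all genes did. Of these, Pemt did not pass with library size alone, in 1 fit of all 18 libraries or with the libraries of sample sheet numbers 55 to 68, and Ahcy did not with the latter. Slc6a6 passed by the DESeq2 Wald test and with library size alone. The FPC-GFP and CON-GFP livers did not overlap for 6 of them, Csad, Cdo1, Mat1a, Bhmt, Gnmt and Cth, where 10.4% of all genes did not overlap. The median log2 fold change of the 10 genes was -0.79, and that of all genes tested was 0.01. Since the genes were chosen with these fold changes in view, the shares describe the choice and support nothing beyond it.

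**Figure D1:**
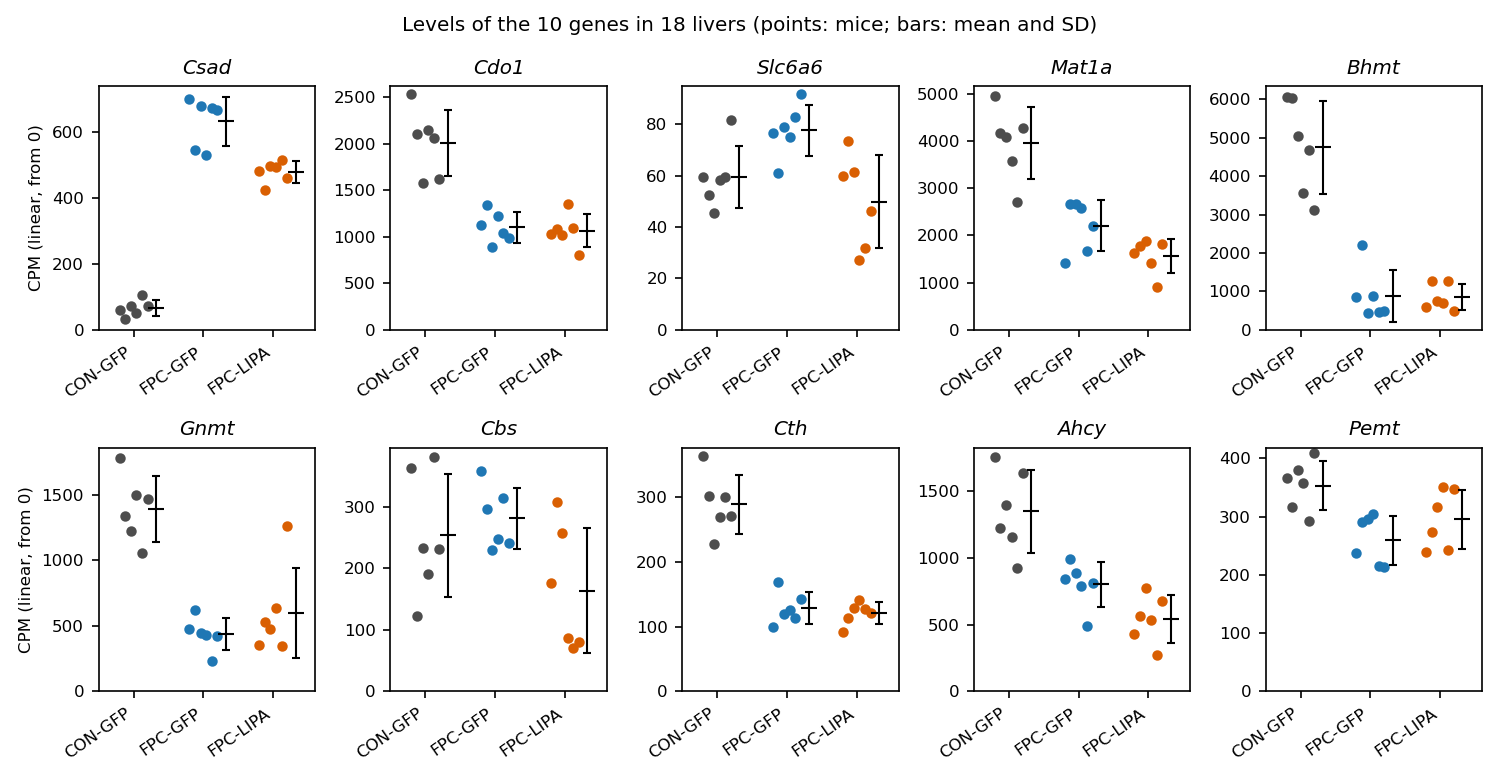
Levels of the 10 genes in CPM on linear axes from 0, with 1 point per mouse and the mean and SD of each group of 6 beside the points. Csad lay between 32.4 and 105 CPM in CON-GFP and above 424 in every FPC liver, while Bhmt lay between 3125 and 6057 CPM in CON-GFP and at or below 2199 in every FPC liver.

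Csad encodes cysteine sulfinic acid decarboxylase, which makes hypotaurine, the direct precursor of taurine. It lies on chromosome 15 (GRCm38, 102176999 to 102204724, minus strand). In CON-GFP its level ranged from 32.4 to 105 CPM with a median of 65.4. In FPC-GFP it ranged from 530 to 700 CPM with a median of 670, and in FPC-LIPA from 424 to 515 CPM with a median of 488. Each FPC-GFP liver was thus above each control liver and above each FPC-LIPA liver. The log2 fold change was 3.29 ± 0.22 (SE) for FPC-GFP against CON-GFP, the 27th largest in size of the 14307 genes tested, and 2.92 ± 0.25 for FPC-LIPA against CON-GFP. Between FPC-LIPA and FPC-GFP it was -0.34 ± 0.16, and -0.43 ± 0.15 without FPC-LIPA 36, 37 and 39. The spread between mice was small in the FPC groups, with a coefficient of variation of 11.7% in FPC-GFP and 6.80% in FPC-LIPA against 37.5% in CON-GFP. Zfp740 overlaps Csad on the opposite strand and shared 3.43% of its 50-base stretches, and Zfp740 itself had means of 33.0 CPM in CON-GFP, 32.6 in FPC-GFP and 27.4 in FPC-LIPA.

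Starts of 6 of the 10 genes (Csad, Bhmt, Gnmt, Cbs, Ahcy and Pemt) were taken from the RefSeq promoter table of GRCm38.p6. Cdo1 was not examined in this way, so 6 is not a count of the genes with a listed start. The 250 bases before the start are shown for Csad, the gene that was higher, and for Bhmt and Gnmt, the pair with the largest decreases, each read along the gene's own strand. Capitals mark CCAAT (the CCAAT box) or its reverse complement. They likewise mark the letters AGGTCA, which are part of a nuclear receptor element and not a whole one, or their reverse complement. The Csad stretch is chr15:102205053-102205302, the Bhmt stretch chr13:93637759-93638008 and the Gnmt stretch chr17:46729166-46729415, all on the minus strand. Csad has a second listed start inside the gene, whose stretch (chr15:102189044-102189293) is not shown.
Csad: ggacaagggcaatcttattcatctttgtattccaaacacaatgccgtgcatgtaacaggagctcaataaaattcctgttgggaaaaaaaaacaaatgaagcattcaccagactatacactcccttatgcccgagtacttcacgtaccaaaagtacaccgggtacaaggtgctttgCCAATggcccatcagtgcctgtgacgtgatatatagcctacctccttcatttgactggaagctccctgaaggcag
Bhmt: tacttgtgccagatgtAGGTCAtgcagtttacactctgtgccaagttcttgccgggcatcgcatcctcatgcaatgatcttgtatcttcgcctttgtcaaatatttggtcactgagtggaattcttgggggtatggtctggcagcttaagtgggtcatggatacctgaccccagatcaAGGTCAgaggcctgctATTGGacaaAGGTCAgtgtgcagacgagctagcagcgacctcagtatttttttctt
Gnmt: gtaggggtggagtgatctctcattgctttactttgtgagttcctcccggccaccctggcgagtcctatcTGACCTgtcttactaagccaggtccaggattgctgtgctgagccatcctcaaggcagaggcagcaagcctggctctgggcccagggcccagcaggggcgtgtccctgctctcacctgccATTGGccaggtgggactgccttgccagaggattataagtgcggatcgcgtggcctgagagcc
The TATA box, spelled TATAAA, and the GC box, spelled GGGCGG, were searched as well, all on both strands, and no matches overlapped in the 3 stretches. Of all 32851 RefSeq promoters cut to the same length, 12.4% held the TATA box, 33.8% the CCAAT box, 32.7% the GC box and 14.0% AGGTCA. Bhmt held AGGTCA in 3 places, beginning at positions -234, -72 and -47 from the start. Of all promoters, 0.131% held AGGTCA in 3 or more places. The Bhmt gene as annotated by GENCODE reaches base 93637961, inside this stretch, so the matches at -72 and -47 lie within the annotated gene. Gnmt held AGGTCA once, at -181 on the other strand. The printed Csad stretch held a CCAAT box at -75 and no AGGTCA. The stretch of Csad's other start held a GC box at -72 and neither a CCAAT box nor AGGTCA. The CCAAT box lay at -56 in Bhmt and at -62 in Gnmt on the other strand. These matches are letters in a window and were not tested as binding sites.

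Cdo1 encodes cysteine dioxygenase, which makes the cysteine sulfinic acid that Csad uses. It lies on chromosome 18 (46713193 to 46728395, minus strand). CON-GFP livers held 1583 to 2536 CPM around a median of 2084, FPC-GFP livers 888 to 1337 around 1083, and FPC-LIPA livers 807 to 1356 around 1056. All 12 FPC livers were below all control livers, and the FPC groups overlapped almost wholly. The log2 fold change was -0.87 ± 0.14 for FPC-GFP against CON-GFP and -0.88 ± 0.19 for FPC-LIPA against CON-GFP, so it stayed short of 2-fold in both. Between the FPC groups it was 0.015 ± 0.18, and -0.062 ± 0.14 without FPC-LIPA 36, 37 and 39. These adjacent steps of taurine synthesis therefore moved in opposite directions with diet. Per length, the ratio of Csad to Cdo1 was 0.0145 ± 0.0063 (SD, n = 6) in CON-GFP, 0.254 ± 0.060 in FPC-GFP and 0.197 ± 0.032 in FPC-LIPA. Its highest control value was 0.0219 and its lowest FPC value 0.157.

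Slc6a6, on chromosome 6 (91684053 to 91759066, plus strand), encodes the taurine transporter of the cell membrane. It was the lowest of the 10 genes per length in all groups, with means of 7.02, 9.17 and 5.89 CPM per kb in CON-GFP, FPC-GFP and FPC-LIPA. Its level ranged from 45.4 to 81.4 CPM in CON-GFP (median 58.8) and from 60.99 to 91.6 in FPC-GFP (median 77.6), and these groups overlapped. Among the FPC-LIPA livers it lay at 59.7, 73.3 and 61.3 CPM in 31, 33 and 34, and at 27.0, 31.8 and 46.1 in 36, 37 and 39. The 3 libraries rich in ribosomal protein counts were thus the lowest of that group, and numbers 36 and 37 were below all FPC-GFP and CON-GFP livers. The log2 fold change was 0.39 ± 0.14 for FPC-GFP against CON-GFP and -0.60 ± 0.22 for FPC-LIPA against FPC-GFP, and the latter was -0.25 ± 0.16 without those 3 libraries.

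Mat1a, on chromosome 14 (41105035 to 41124412, plus strand), encodes the liver form of methionine adenosyltransferase, which makes S-adenosylmethionine. It spanned 2705 to 4964 CPM in control livers, with a median of 4127. On the FPC diet it spanned 1422 to 2670 CPM with GFP (median 2392) and 917 to 1874 with LIPA (median 1700). All control livers were above all FPC livers, and the FPC groups overlapped. With diet it differed by -0.84 ± 0.18 on the log2 scale (FPC-GFP against CON-GFP), and by -1.30 ± 0.22 for FPC-LIPA against CON-GFP. FPC-LIPA differed from FPC-GFP by -0.44 ± 0.22, or by -0.31 ± 0.20 without FPC-LIPA 36, 37 and 39.

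Bhmt, on chromosome 13 (93616675 to 93637961, minus strand), encodes betaine-homocysteine methyltransferase, which remakes methionine from homocysteine with a methyl group of betaine. Its level in CON-GFP ranged from 3125 to 6057 CPM with a median of 4858. In FPC-GFP it lay between 429 and 877 CPM in 5 livers and at 2199 in FPC-GFP 12, and in FPC-LIPA between 494 and 1264 (median 730). No FPC liver reached the control range, and the FPC groups overlapped. The log2 fold change was -2.43 ± 0.37 for FPC-GFP against CON-GFP, 78th in size among the 14307 genes, and -2.93 ± 0.26 without FPC-GFP 12. FPC-LIPA differed from FPC-GFP by 0.007 ± 0.40 (0.005 ± 0.47 without FPC-LIPA 36, 37 and 39), and from CON-GFP by -2.45 ± 0.30. Bhmt shared 26.1% of its 50-base stretches with other genes, mostly Gm5096 and the pseudogene Bhmt-ps1, so its count is uncertain to that extent. The sum of Bhmt and the 3 genes that share at least 1% of its stretches was 5059 ± 1283 CPM in CON-GFP, 951 ± 733 in FPC-GFP and 886 ± 348 in FPC-LIPA.

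Gnmt, on chromosome 17 (46725664 to 46729168, minus strand), encodes glycine N-methyltransferase, which uses up S-adenosylmethionine when methyl groups are plentiful. Its level ranged from 1056 to 1785 CPM in CON-GFP (median 1404) and from 235 to 620 in FPC-GFP (median 437), without overlap. In FPC-LIPA 5 livers lay between 347 and 634 CPM, and FPC-LIPA 39 lay at 1265, inside the control range. FPC-GFP against CON-GFP gave a log2 fold change of -1.67 ± 0.20. It was -1.18 ± 0.30 for FPC-LIPA against CON-GFP, and -1.55 ± 0.23 without FPC-LIPA 39. FPC-LIPA differed from FPC-GFP by 0.52 ± 0.32, which was 0.14 ± 0.25 without FPC-LIPA 39 and 0.063 ± 0.24 without FPC-LIPA 36, 37 and 39. With all libraries kept and each library's trend on gene length removed it was 0.054 ± 0.28. Gnmt has the shortest exon length of the 10 genes, 1206 bases.

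Ahcy, on chromosome 2 (155059310 to 155074497, minus strand), encodes S-adenosylhomocysteine hydrolase, which clears the product that inhibits methyltransferases. Levels stepped down over the groups, from 925 to 1756 CPM in control livers (median 1311) to 488 to 991 CPM with FPC and GFP (median 828) and 274 to 773 CPM with FPC and LIPA (median 551). FPC-LIPA lay wholly below CON-GFP, while FPC-GFP overlapped with both. The log2 fold change was -0.74 ± 0.18 for FPC-GFP against CON-GFP, -0.52 ± 0.24 for FPC-LIPA against FPC-GFP and -1.28 ± 0.25 for FPC-LIPA against CON-GFP. Without FPC-LIPA 36, 37 and 39 the last pair were -0.44 ± 0.22 and -1.18 ± 0.24. Ahcy shared 68.7% of its 50-base stretches with other genes, chiefly Gm4737, so reads could be split between them. Gm4737 had means of 230 CPM in CON-GFP, 138 in FPC-GFP and 90.8 in FPC-LIPA, and the sum of Ahcy and the 3 genes that share at least 1% of its stretches was 1601 ± 365, 955 ± 204 and 641 ± 208 CPM in the same order. The ratio of Gnmt to Ahcy, per length, was 2.45 ± 0.37 in CON-GFP, 1.25 ± 0.12 in FPC-GFP and 2.59 ± 1.02 in FPC-LIPA. In FPC-LIPA it ranged from 1.43 to 4.33 and overlapped with CON-GFP (2.04 to 3.02) and with FPC-GFP (1.12 to 1.46). That mean includes FPC-LIPA 39, with its high Gnmt, and the ratio was not computed without FPC-LIPA 36, 37 and 39.

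Cbs, on chromosome 17 (31608894 to 31637238, minus strand), encodes cystathionine beta-synthase, which commits homocysteine to cysteine. Unlike the other enzymes of the cycle it did not pass the test on the FPC diet, with a log2 fold change of 0.16 ± 0.22. Its level ranged from 123 to 381 CPM in CON-GFP (median 232) and from 230 to 358 in FPC-GFP (median 272), and these groups overlapped. In FPC-LIPA it lay at 176, 309 and 258 CPM in 31, 33 and 34, and at 86.4, 70.9 and 79.8 in 36, 37 and 39. The latter 3 livers were the lowest of all 18. FPC-LIPA differed from FPC-GFP by -0.75 ± 0.33, and by -0.17 ± 0.19 without these 3. Cbs and Slc6a6 had the greatest exon lengths of the 10 genes, 7485 and 8457 bases. In 1 alternative each library's trend on gene length was removed, and the part of gene length in these values was not tested. In that alternative Cbs differed by -0.66 ± 0.30 and Slc6a6 by -0.48 ± 0.19 between FPC-LIPA and FPC-GFP. The value of the short gene Gnmt there was 0.054 ± 0.28, as given above.

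Cth, on chromosome 3 (157894248 to 157925077, minus strand), encodes cystathionine gamma-lyase, which releases cysteine from cystathionine. The control livers held 227 to 363 CPM (median 286), against 100.1 to 170 CPM in FPC-GFP (median 123) and 91.2 to 141 CPM in FPC-LIPA (median 124). All FPC livers were below all control livers, and FPC-LIPA lay almost wholly inside the range of FPC-GFP. On the log2 scale FPC-GFP differed from CON-GFP by -1.16 ± 0.15, and FPC-LIPA by -1.22 ± 0.18. With libraries scaled by total count alone the former was -0.96 ± 0.14, short of 2-fold. FPC-LIPA differed from FPC-GFP by -0.031 ± 0.18, and by -0.20 ± 0.18 without FPC-LIPA 36, 37 and 39. The ratio of Cbs to Cth per length was 0.327 ± 0.11 in CON-GFP, 0.851 ± 0.28 in FPC-GFP and 0.526 ± 0.34 in FPC-LIPA. Its lowest FPC-GFP value of 0.627 was above the highest control value of 0.471. In FPC-LIPA it ranged from 0.209 to 1.01, over the ranges of both other groups. That mean includes FPC-LIPA 36, 37 and 39, where Cbs was lowest, and the ratio was not computed without them.

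Pemt, on chromosome 11 (59970614 to 60046489, minus strand), encodes phosphatidylethanolamine N-methyltransferase, which spends S-adenosylmethionine to make phosphatidylcholine in liver. It was the gene with the smallest spread in CON-GFP, with a coefficient of variation of 12.0%. Medians of 362, 264 and 295 CPM in CON-GFP, FPC-GFP and FPC-LIPA went with ranges of 293 to 409, 213 to 305 and 240 to 351, so all groups overlapped. In log2 terms it differed by -0.44 ± 0.12 for FPC-GFP against CON-GFP and 0.25 ± 0.18 for FPC-LIPA against FPC-GFP. The latter was 0.11 ± 0.15 without FPC-LIPA 36, 37 and 39 and 0.11 ± 0.16 with the gene length trend removed.

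The order of the 10 genes in CPM per kb changed with diet. In CON-GFP, Cdo1 (1223 ± 218, SD), Gnmt (1157 ± 208) and Mat1a (1142 ± 219) led and did not differ beyond their spread, followed by Bhmt (825 ± 212), Ahcy (481 ± 111), Pemt (168 ± 20.2), Cth (104 ± 16.3), Cbs (33.9 ± 13.4), Csad (17.01 ± 6.38) and Slc6a6 (7.02 ± 1.43). In FPC-GFP, Cdo1 (669 ± 98.6) and Mat1a (635 ± 156) led, and Csad (165 ± 19.3) stood beside Bhmt (153 ± 117), within their spread. In FPC-LIPA, Csad (125 ± 8.50) lay just below Pemt (140 ± 23.9). Together the 10 genes took 1.25% to 1.58% of counts in CON-GFP, 0.608% to 0.956% in FPC-GFP and 0.409% to 0.747% in FPC-LIPA, and no FPC liver reached the control range.

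**Figure D2:**
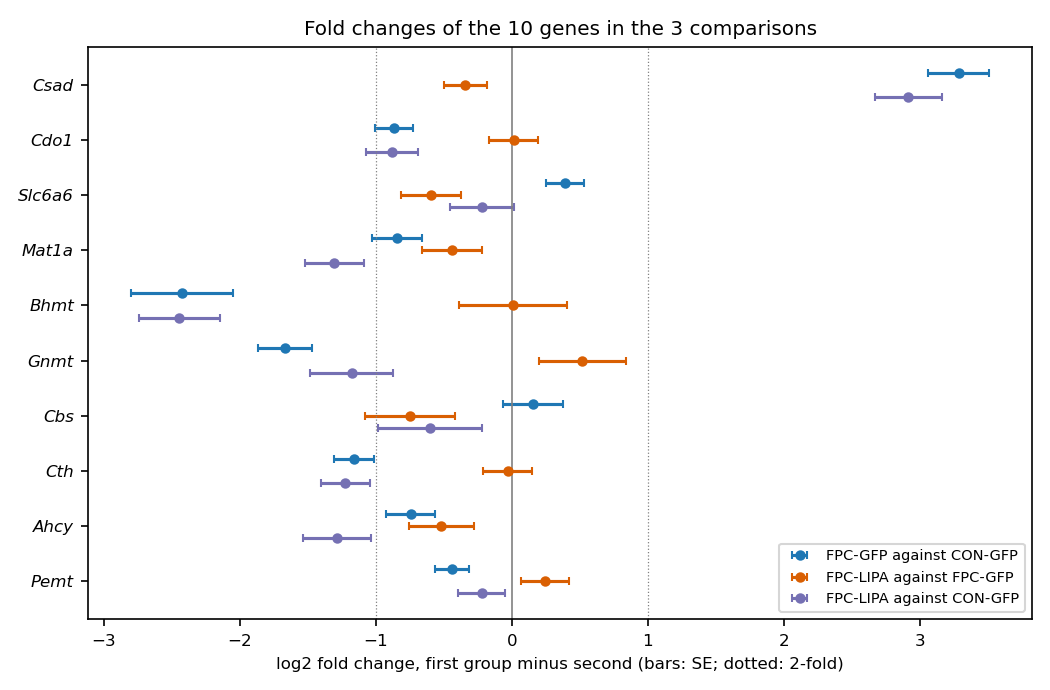
Fold changes (log2, first group minus second) of the 10 genes in the 3 comparisons, with bars for the SE and dotted lines at 2-fold. Csad is at 3.29 and Bhmt at -2.43 for FPC-GFP against CON-GFP, while all values for FPC-LIPA against FPC-GFP lie between -0.75 and 0.52.

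With human LIPA on top of the FPC diet none of the 10 genes passed the thresholds against FPC-GFP, and against CON-GFP Csad was higher and Bhmt, Gnmt and Cth were lower in FPC-LIPA as well. In FPC-LIPA against FPC-GFP, 0 of the 10 were DE and 0 had an adjusted p under 0.05 by edgeR's quasi-likelihood test, where 11.4% of the 14620 genes tested were DE (10.3% higher and 1.11% lower) and 21.2% had an adjusted p under 0.05. At an unadjusted p under 0.05 there were 3, and the DESeq2 Wald test gave an adjusted p under 0.05 to 1, Slc6a6. Csad was the 1 gene whose groups did not overlap, lower in FPC-LIPA, where 7.66% of all genes did not overlap. Without FPC-LIPA 33, which had the highest Cbs and Slc6a6 of its group, Cbs was DE with a log2 fold change of -1.03 ± 0.30, and Slc6a6 had an adjusted p under 0.05 at -0.73 ± 0.21. The median log2 fold change was -0.19, beside 0.04 for all genes. In FPC-LIPA against CON-GFP, 6 of the 10 were DE (Csad higher, and Mat1a, Bhmt, Gnmt, Cth and Ahcy lower), where 15.1% of 14433 genes were (11.8% higher and 3.25% lower), and 7 had an adjusted p under 0.05, where 22.9% did. The same counts of 6 and 7 were found without FPC-LIPA 36, 37 and 39. The comparisons share libraries, so agreement between them is no separate support.

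**Figure D3:**
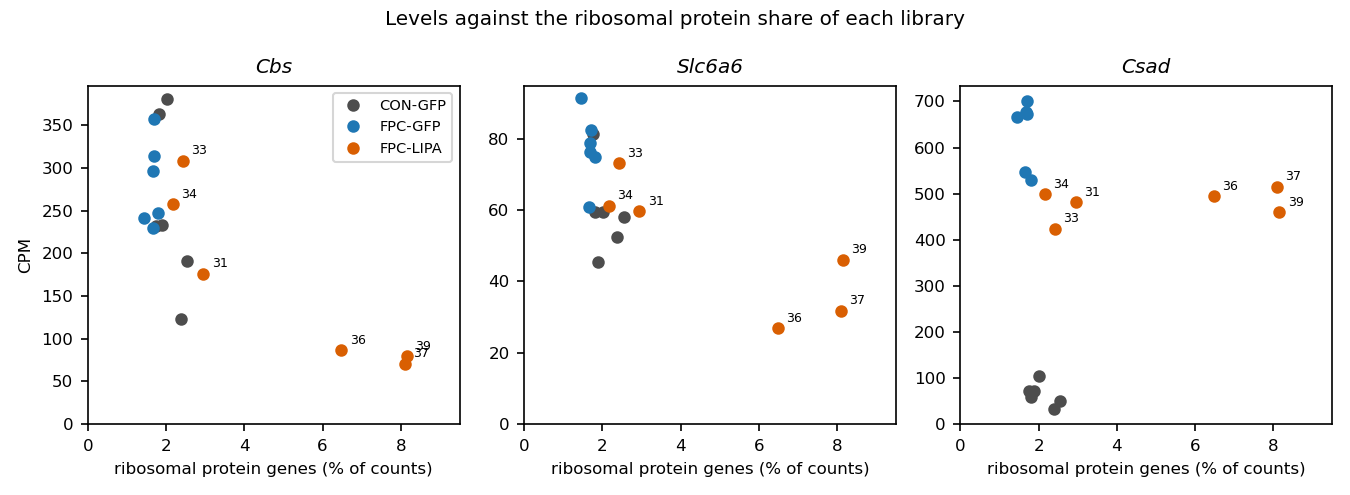
Level in CPM against the percent of counts on 83 ribosomal protein genes, with 1 point per library, colored by group, and FPC-LIPA libraries numbered. Cbs is at its lowest in FPC-LIPA 37 and 39 and Slc6a6 in FPC-LIPA 36 and 37, while Csad lies between 424 and 515 CPM across all FPC-LIPA libraries.

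Several marker lists moved with the same groups, and their part in the values of the 10 genes was not tested. In bulk liver, fewer cells of a type and less RNA per cell cannot be told apart. In FPC-GFP against CON-GFP the 8 hepatocyte markers had a median log2 fold change of -0.21 with 1 DE, Serpina1c at -1.07. Of 6 periportal hepatocyte markers 5 were lower with an adjusted p under 0.05 (median -1.04), and of 6 pericentral markers likewise 5 (median -0.92), so lists of both ends of the lobule were lower by about as much as Mat1a and Cdo1. Of 10 leukocyte markers 7 were higher with an adjusted p under 0.05, and their summed level was 97.5 to 198 CPM in CON-GFP, 265 to 574 in FPC-GFP and 642 to 964 in FPC-LIPA, far below that of the hepatocyte markers. Between FPC-LIPA and FPC-GFP the hepatocyte markers had a median of -0.46 with 3 of 8 lower at an adjusted p under 0.05, and 5 of the 10 leukocyte markers were higher by the same test. Csf1r (-0.13), Cd74 (-0.018), Cd68 (0.12), Cd3e (0.88) and Cd79a (1.07) did not pass. Lyz2 alone had means of 138 CPM in FPC-GFP and 481 in FPC-LIPA, a large part of the summed level. These marker values, and those of the stellate list given next, are for all libraries. Hnf4a, 1 of the 3 lower hepatocyte markers, did not pass without FPC-LIPA 36, 37 and 39. The 7 stellate cell markers held 3 that were higher with an adjusted p under 0.05 in FPC-GFP against CON-GFP (median 0.23). In FPC-LIPA against FPC-GFP they also held 3, while the other 4 were lower without passing, and the median was -0.13. Their summed level was 174 to 287 CPM in CON-GFP, 229 to 304 in FPC-GFP and 313 to 975 in FPC-LIPA. The 975 was that of FPC-LIPA 37 alone, and the median of FPC-LIPA was 376. Of the pancreatic acinar markers Cel was at 0 in CON-GFP and FPC-GFP, Cpa1, Prss2 and Pnlip were at or near 0 there, and Cela1, which liver also expresses, was the 1 marker with enough counts to test. Cela1 was DE at -1.92 for FPC-GFP against CON-GFP and at 1.66 for FPC-LIPA against FPC-GFP. The summed level of the list was 24.4 to 93.3 CPM in CON-GFP, 11.4 to 15.8 in FPC-GFP and 18.8 to 66.8 in FPC-LIPA. It was 45.7, 54.4 and 66.8 CPM in FPC-LIPA 36, 37 and 39, the highest of that group.

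The neighbouring steps of these pathways were read from 7 lists of 74 other genes, of which 71 had enough counts to test. In FPC-GFP against CON-GFP, 22 of the 71 had an adjusted p under 0.05 (9 higher and 13 lower) and 6 were DE, beside 23.8% and 7.2% of all genes tested, and their median log2 fold change was -0.15. All p-values for these genes are from edgeR's quasi-likelihood test, adjusted over all genes tested. The genes nearest to Bhmt on chromosome 13, Bhmt2 and Dmgdh, were lower. Bhmt2, a paralog that methylates homocysteine from S-methylmethionine and lies 17759 bases away, fell by 0.89 on the log2 scale (adjusted p = 0.000671). Dmgdh, the next enzyme after Bhmt in choline oxidation, 36472 bases away, fell by 1.10 (adjusted p = 9.41e-05), from 583 ± 52.0 CPM to 271 ± 43.0. Both had groups that did not overlap. Adk, which removes the adenosine released by Ahcy, fell by 0.56 (adjusted p = 0.00182), and Ahcyl1, a relative of Ahcy named after its values were seen, fell by 0.44 (adjusted p = 0.0131). The other 6 genes of the methionine cycle list did not pass.

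Folate enzymes of the one-carbon pool changed in both directions on the FPC diet. The mitochondrial enzymes Mthfd1l and Aldh1l2 rose by 2.19 ± 0.39 (adjusted p = 0.00173) and 2.35 ± 0.31 (adjusted p = 0.000235) on the log2 scale, from means of 1.85 to 8.61 CPM and of 0.344 to 1.75 CPM. The cytosolic Aldh1l1, an abundant liver enzyme, fell by 0.91 (adjusted p = 0.00216), from 877 ± 232 to 465 ± 69.5 CPM. Of the 16 genes of that list, 4 rose, 3 fell and 9 did not pass. Named after their values were seen, the rest of those that passed were Mthfd2, a mitochondrial folate enzyme, which rose by 1.23 ± 0.42 (adjusted p = 0.0446), Chdh, the choline dehydrogenase that feeds betaine synthesis, which rose by 0.56 ± 0.11 (adjusted p = 0.0027), and Pipox, which oxidizes sarcosine, the product of Gnmt, and fell by 0.75 ± 0.12 (adjusted p = 0.00101). Of 9 other methyltransferases 3 fell and 0 rose by edgeR's quasi-likelihood test, 5 having an unadjusted p under 0.05. Nnmt, which methylates nicotinamide, fell from 89.2 ± 54.6 to 9.99 ± 3.74 CPM (log2 fold change -3.15 ± 0.39, adjusted p = 0.000198), and Gamt, the methyltransferase of creatine synthesis, fell by 0.66 (adjusted p = 0.0055), as did Tpmt, named after its values were seen (adjusted p = 0.00618). Inmt, the most abundant of that list, lay at 1564 ± 497 and 1338 ± 372 CPM (adjusted p = 0.495).

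Among genes that use cysteine, Gss and Gclc of glutathione synthesis rose by 0.87 ± 0.17 (adjusted p = 0.00271) and 0.77 ± 0.25 (adjusted p = 0.0378), while Got1, a cytosolic aminotransferase, fell by 2.12 ± 0.36 (adjusted p = 0.00123). The other 7 tested genes of that list did not pass. The call of Gclc is not firm, since it was lost when any of 8 libraries was left out. Beside Csad, the taurine list held 2 genes that rose and 1 that fell of 10 tested. Vnn1, a pantetheinase that yields the taurine precursor cysteamine, rose by 0.63 ± 0.12 (adjusted p = 0.00219), and Slc6a13, a transporter of GABA and taurine, by 0.37 ± 0.12 (adjusted p = 0.037). Slc10a1, which takes up taurine-conjugated bile acids, fell by 0.68 ± 0.16 (adjusted p = 0.00866). Slc27a5, which activates bile acids before conjugation, lay at 814 ± 157 and 640 ± 97.5 CPM (adjusted p = 0.0959). In the list of the CDP-choline route, the other source of phosphatidylcholine beside Pemt, 1 of 9 tested genes passed. It was Etnk2, an ethanolamine kinase and so not a choline step, which fell by 0.98 ± 0.20 (adjusted p = 0.00335). In the bile acid feedback list 2 of 8 passed, Nr1h4, the bile acid receptor FXR, which fell by 0.34 ± 0.11 (adjusted p = 0.0354), and Klb, a coreceptor of FGF signaling, which rose by 0.38 ± 0.13 (adjusted p = 0.041). The calls of Nr1h4, Klb and Slc6a13 were lost when any of 6 to 8 libraries was left out.

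**Figure D4:**
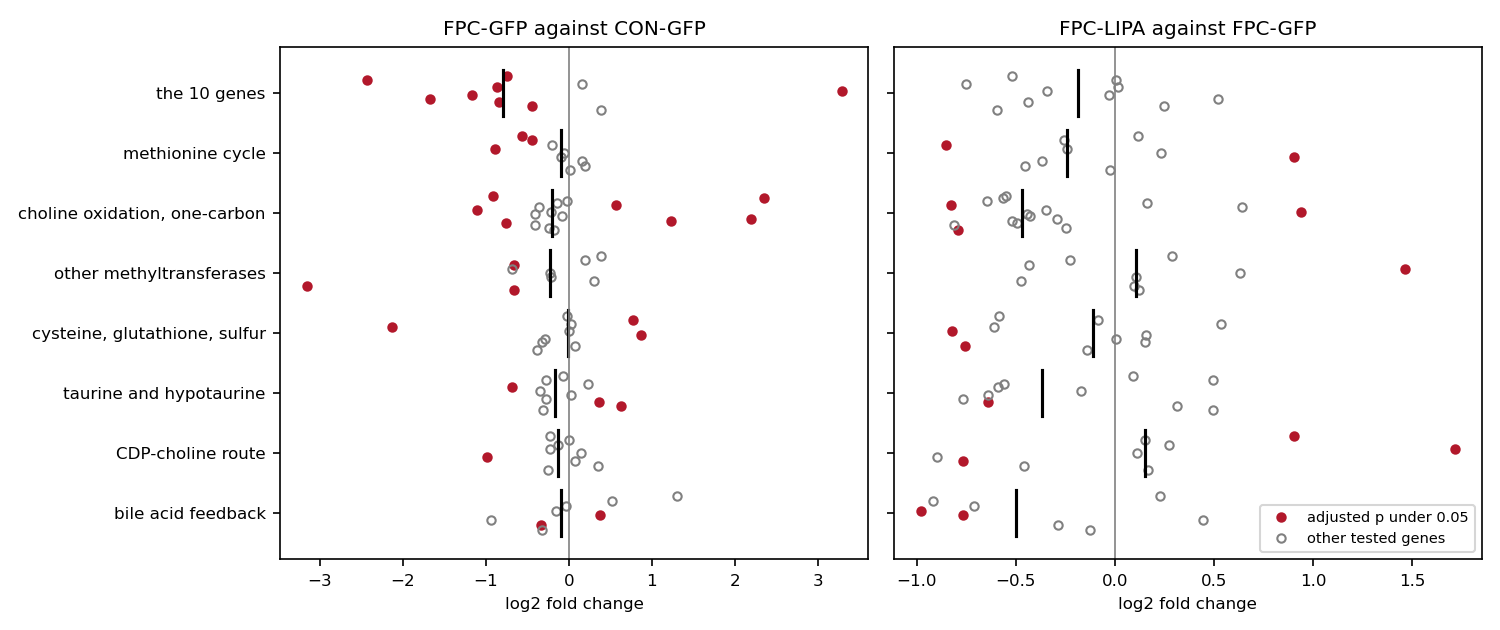
Fold changes (log2) of the 10 genes and of the tested genes of the 7 lists, for FPC-GFP against CON-GFP on the left and FPC-LIPA against FPC-GFP on the right, on separate scales. Filled points had an adjusted p under 0.05 and black bars are medians, which are -0.79 for the 10 genes on the left and between -0.22 and -0.01 for the lists.

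In FPC-LIPA against FPC-GFP, 14 of the 71 had an adjusted p under 0.05 (5 higher and 9 lower) and 2 were DE, with a median of -0.25. These counts stand beside 21.2% and 11.4% of all genes tested, so neither share of the list was above that of all genes. The DE pair were Chpt1, which joins CDP-choline to diacylglycerol, at 1.72 ± 0.51 (adjusted p = 0.0312), and Hnmt, which methylates histamine, at 1.46 ± 0.41 (adjusted p = 0.0262). Mat2b, the regulatory subunit of the other methionine adenosyltransferase, rose by 0.90 ± 0.31 (adjusted p = 0.0484), as did Gcsh of the glycine cleavage system, by 0.94 ± 0.28 (adjusted p = 0.032), and Cept1, by 0.90 ± 0.31 (adjusted p = 0.0484). Chdh fell by 0.83 ± 0.22 (adjusted p = 0.024), Pcyt1a, the rate-limiting step of the CDP-choline route, by 0.77 ± 0.19 (adjusted p = 0.0192), Suox, which oxidizes sulfite, by 0.75 ± 0.20 (adjusted p = 0.0242), and Slc6a13 by 0.64 ± 0.21 (adjusted p = 0.0426). Ahcyl2, Shmt2 and Got2 also fell, by 0.85, 0.79 and 0.82, as did Klb, by 0.77 (adjusted p between 0.023 and 0.0416). Hnf4a, a transcription factor of hepatocyte genes, fell by 0.98 ± 0.32 (adjusted p = 0.0425). None of these calls held without FPC-LIPA 36, 37 and 39: there 0 of the 71 had an adjusted p under 0.05 by edgeR's quasi-likelihood test and 14 an unadjusted p under 0.05, and Chpt1 lay at 0.18 ± 0.22, Hnmt at 0.41 ± 0.28 and Hnf4a at -0.46 ± 0.19.

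In FPC-LIPA against CON-GFP, 28 of the 71 had an adjusted p under 0.05 (5 higher and 23 lower) and 16 were DE, beside 22.9% and 15.1% of all genes tested, with a median of -0.31. Bhmt2 was at -1.15 ± 0.18 (adjusted p = 0.000526) and Dmgdh at -1.48 ± 0.18 (adjusted p = 7.79e-05), while Nnmt was at -3.09 ± 0.42 (adjusted p = 0.000208) and Etnk2 at -1.90 ± 0.32 (adjusted p = 0.000921). Cyp7a1, the rate-limiting enzyme of bile acid synthesis, rose by 1.504 ± 0.51 (adjusted p = 0.045), a call that was lost when any of 9 libraries was left out. It lay at 1.27 ± 0.57 without FPC-LIPA 36, 37 and 39, also short of the test. Higher as well, with an adjusted p under 0.05, were Mthfd1l (1.89), Aldh1l2 (1.76), Gss (0.997) and Vnn1 (0.90). Among those lower were Got1 (-2.75), Aldh1l1 (-1.48), Slc10a1 (-1.30), Hnf4a (-1.15) and Gamt (-1.11). Ahcyl2 (-1.07), Slc6a12 (-1.05), Got2 (-0.84), Pcyt1a (-0.71) and Nr1h4 (-0.65) were lower too. The calls of Vnn1, Hnf4a, Slc6a12, Got2 and Pcyt1a were lost without FPC-LIPA 36, 37 and 39. There 23 of the 71 had an adjusted p under 0.05 and 9 were DE.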

How the data were processed

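RNA from 1 liver per mouse was made into 1 library, with 6 libraries in each of CON-GFP, FPC-GFP and FPC-LIPA as the labels group them. The title of FPC-LIPA 37 carries an added letter b after its number, and the meaning of that letter is not stated. The values are raw counts per gene, which the authors made by trimming paired reads, mapping them with Hisat2 2.1.0 to GRCm38 and counting them with Feature Counts, and which they deposited without normalization. The paper names a stranded and an unstranded library kit without saying which library was made with which, and the strand setting, annotation version and treatment of multiply mapped reads are not given in the sources used here, so counts of paralogs, pseudogenes and overlapping genes are uncertain. The table's 5 columns for other vectors were left out.

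Each comparison was fitted on its 12 libraries with edgeR 4.0.16 in R 4.3.3 (filterByExpr, TMM, quasi-likelihood test, Benjamini-Hochberg adjustment over all genes tested). Genes with at least a 2-fold change and an adjusted p under 0.05 were called DE. An SE was taken as the absolute log2 fold change over the root of F. Exon lengths and coordinates came from GENCODE M21 of GRCm38, in which 55227 of 55487 genes were found, and promoters from RefSeq. A stretch was shared when the same 50 bases occur in transcripts of another gene. Alternatives were DESeq2 1.42.0 (size factors and Wald test), library size alone, no filter, all 18 libraries in 1 fit, removal of each library's gene length trend, other thresholds, libraries with sample sheet numbers from 55 to 68 and libraries left out. The choice by sheet number leaves out CON-GFP 1, CON-GFP 2, FPC-GFP 20 and FPC-LIPA 37. What the sheet numbers stand for is not stated. The fits were tested on simulated data. Counting noise was small beside the spread between mice, since within groups chi-square over its degrees of freedom was 15.4 to 591, so errors are SD or SE over mice.

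The members and gene lists were chosen with earlier results of these data known. Text names all members and, from each list, the gene with the highest mean level and, in each comparison, up to 2 genes that rose and 2 that fell by most among those with an adjusted p under 0.05, as well as genes said to be named after their values were seen. Counts with an adjusted p under 0.05 in the lists, and values of named list genes, were added to the alternatives after seeing the data. Replicate numbers are not shared between groups.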

Additional observations from a re-analysis of the deposited data

Results flagged for a closer look

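In each of the 30 sets of 6 livers (10 genes in 3 groups), the gap between the highest or lowest liver and its nearest neighbour was set against the range of the set. It passed Dixon's 95% critical value in 2 sets, and chance alone gives that in about 1 set in 20. Bhmt in FPC-GFP 12 lay at 2199 CPM, a gap of 0.747 of the range above the other 5 livers of its group. Gnmt in FPC-LIPA 39 lay at 1265 CPM, a gap of 0.687 of the range above the other 5. Without these livers the log2 fold change of Bhmt was -2.93 for FPC-GFP against CON-GFP and 0.51 for FPC-LIPA against FPC-GFP, and that of Gnmt was 0.14 for FPC-LIPA against FPC-GFP.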

How the results depend on the processing

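No paired analysis was possible because the groups share no replicate numbers. For FPC-GFP against CON-GFP, no fold change of the 10 genes turned direction under any alternative or left-out library, and each left-out fit called 4 of them. The counts of DE genes, of DE list genes, of list genes with an adjusted p under 0.05 and of the 10 genes with one ranged over 857 to 1148, 5 to 7, 19 to 24 and 8 to 9. Scaling by library size alone moved the median of all genes by 0.20, to 0.21, and that of the 10 genes to -0.59. An adjusted p under 0.01 left 686 DE genes, and a 1.5-fold limit gave 2254, with 16 list genes and 7 of the 10. All libraries in 1 fit gave 14 list genes an adjusted p under 0.05. Of the 10 genes, 9 had one by DESeq2, 7 in 1 fit and 6 with sample sheet numbers 55 to 68. Hnf4a turned to 0.044 with library size alone.

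For FPC-LIPA against FPC-GFP, DE genes numbered 1016 with library size alone (which moved the median of all genes by -0.13), 96 with sample sheet numbers 55 to 68, 116 without FPC-LIPA 36, 37 and 39, 53 at an adjusted p under 0.01 and 2949 at 1.5-fold. DE list genes numbered 0 with the sheet numbers, 0 without the 3 libraries and 0 at the adjusted p under 0.01, and 14 at 1.5-fold. List genes with an adjusted p under 0.05 numbered 5 with library size alone, 24 by DESeq2, 24 in 1 fit, 0 with the sheet numbers (23 unadjusted) and 0 without the 3 libraries (14 unadjusted). Of the 10 genes, 1 (Slc6a6) had an adjusted p under 0.05 by DESeq2 and 1 (Slc6a6) in 1 fit. With 1 library left out, the counts ranged over 856 to 2612 DE genes, 0 to 9 DE list genes, 2 to 27 list genes with an adjusted p under 0.05, 0 to 1 of the 10 DE and 0 to 2 of the 10 with an adjusted p under 0.05, the highest of each without FPC-LIPA 33. Cdo1 turned to -0.13 with library size alone, -0.048 with no filter, -0.045 with the sheet numbers, -0.22 with the length trend removed and -0.062 without the 3 libraries, and ranged from -0.081 to 0.073 with 1 library left out. Bhmt turned to -0.13, -0.059 and -0.30 with library size, no filter and the sheet numbers, and ranged from -0.18 to 0.51, while Cth ranged from -0.096 to 0.058 and Gclc from -0.22 to 0.087. Adk turned to -0.065 with library size alone, and without the 3 libraries Adk turned to -0.13, Inmt to -0.081 and Gclc to 0.019.

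For FPC-LIPA against CON-GFP, DE genes numbered 1107 with the sheet numbers, 1198 at an adjusted p under 0.01, and 1760 to 2685 with 1 library left out. DE list genes numbered 9 without the 3 libraries and 12 to 21 with 1 library left out, and list genes with an adjusted p under 0.05 numbered 15 with the sheet numbers and 19 to 34 with 1 library left out. Gnmt was at -0.98 with the sheet numbers. Slc6a6 turned to 0.14, Inmt to -0.30 and Pcyt2 to 0.24 without the 3 libraries, Pcyt2 to 0.027 with library size alone, and with 1 library left out Inmt ranged from -0.0088 to 0.52 and Pcyt2 from -0.33 to 0.019. The causes were not tested.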
